A study of Schizosaccharomyces pombe with 2 samples.

Results

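Tf2 is a family of long terminal repeat (LTR) retrotransposons of fission yeast, and 10 of its copies, Tf2-1 to Tf2-9 and Tf2-12, are described here. The members were taken by their row identifiers, as full-length copies, from a table of 12684 annotated features. The rule used no measured value, although earlier results of these data were known when the members were chosen. The table held 3 further Tf2 rows, Tf2-10, Tf2-11 and Tf2-13, which serve for comparison. Tf2-11 has the same coding length as most members, so coding length alone does not set it apart from them. Its annotated 5′ LTR is shorter, 293 nt against the common 349 nt. RNA was sequenced directly, molecule by molecule, on nanopores from vegetative haploid h- Schizosaccharomyces pombe of genotype leu1-32, pat1-L95G::kanR, grown in minimal medium (EMM). Both libraries carried these alleles, the labels named them biological replicates 1 and 2 of 1 group (wt), and no second condition was measured. The pat1 allele is a mutant form of a kinase gene that restrains meiosis, so these cells are wt only as the labels use the word.

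An LTR retrotransposon is copied through RNA. Its transcript starts within the 5′ LTR, runs through the coding region and ends within the 3′ LTR, and the encoded capsid protein (Gag), protease, reverse transcriptase and integrase turn that RNA into DNA that can insert elsewhere. In Tf elements these proteins are made from 1 open reading frame as a single polyprotein. Tf2 elements lie mostly upstream of genes read by RNA polymerase II, and a new insertion duplicates a few bases of target DNA on either side. In S. pombe the CENP-B homologues, which descend from transposases, the HIRA histone chaperone and histone deacetylases keep Tf2 RNA low, and the sterol-responsive factor Sre1 raises it when oxygen is short.

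The table gives reads assigned to each row, and the sequence of a row bears on what can be assigned to it. All 13 Tf2 rows had the same coordinates as RefSeq genes on assembly ASM294v3, from which the sequences below were read. For 8 of the members the row ran from start codon to stop codon, 4002 nt with 1333 codons before the stop, and held neither LTR. The rows of Tf2-2 (4117 nt) and Tf2-7 (4086 nt) ran on past the stop codon by 115 and 84 nt. This took in 65 and 47 bases of the 3′ LTR as annotated. The annotated 3′ LTR of Tf2-7 is longer (362 nt) and begins 37 nt past the stop codon, against 50 nt in Tf2-2, so the 2 figures use unlike boundaries. The run-ons are shown because, apart from them, no member row holds anything but the coding span. Capitals mark the stop codon.
Tf2-2, chrI:1564101-1564218, minus strand: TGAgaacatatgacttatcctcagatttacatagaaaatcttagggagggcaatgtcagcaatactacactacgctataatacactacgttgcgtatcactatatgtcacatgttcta
Tf2-7, chrI:5191060-5191146, minus strand: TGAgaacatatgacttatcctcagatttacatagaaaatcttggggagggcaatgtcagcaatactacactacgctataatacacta

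Over the shared coding span the 10 members had only 3 sequences. Tf2-1, Tf2-2, Tf2-4 and Tf2-9 were identical over 4002 nt, as were Tf2-3, Tf2-5, Tf2-6 and Tf2-12, and as were Tf2-7 and Tf2-8. Of the 45 pairs of members, 13 were identical, and the most distant pairs differed at 10 bases (99.75% identity). With positions counted from 1 at the A of the start codon, and the base of Tf2-1 written first, the Tf2-3 class differed from the Tf2-1 class by T153A, which is silent, and T617C, which changes a residue. These bases are shown in their surroundings, in capitals, because they are all that separates 8 of the members.
Tf2-1 around position 153, chrI:1465979-1466019, plus strand: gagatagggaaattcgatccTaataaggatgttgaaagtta
Tf2-3 around position 153, chrI:2931033-2931073, minus strand: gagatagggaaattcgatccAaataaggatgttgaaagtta
Tf2-1 around position 617, chrI:1466443-1466483, plus strand: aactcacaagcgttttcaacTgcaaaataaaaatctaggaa
Tf2-3 around position 617, chrI:2930569-2930609, minus strand: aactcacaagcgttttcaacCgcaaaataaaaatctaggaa

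Tf2-7 and Tf2-8 carried both of these bases and 8 more substitutions, C1619T, C1667T, A1677G, G1699A, G1767A, C1812T, T2085G and G2130A, so that 4 of their 10 differences from Tf2-1 change a residue. Tf2-11 differed from Tf2-1 at 16 bases and shared 8 of these 10 substitutions with Tf2-7, among them T617C but not T153A or T2085G. Tf2-10 differed from Tf2-1 by 3 substitutions and 1 missing base, and Tf2-13 by 1 missing base alone, which leaves both with 4001 nt.

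**Figure D1:**
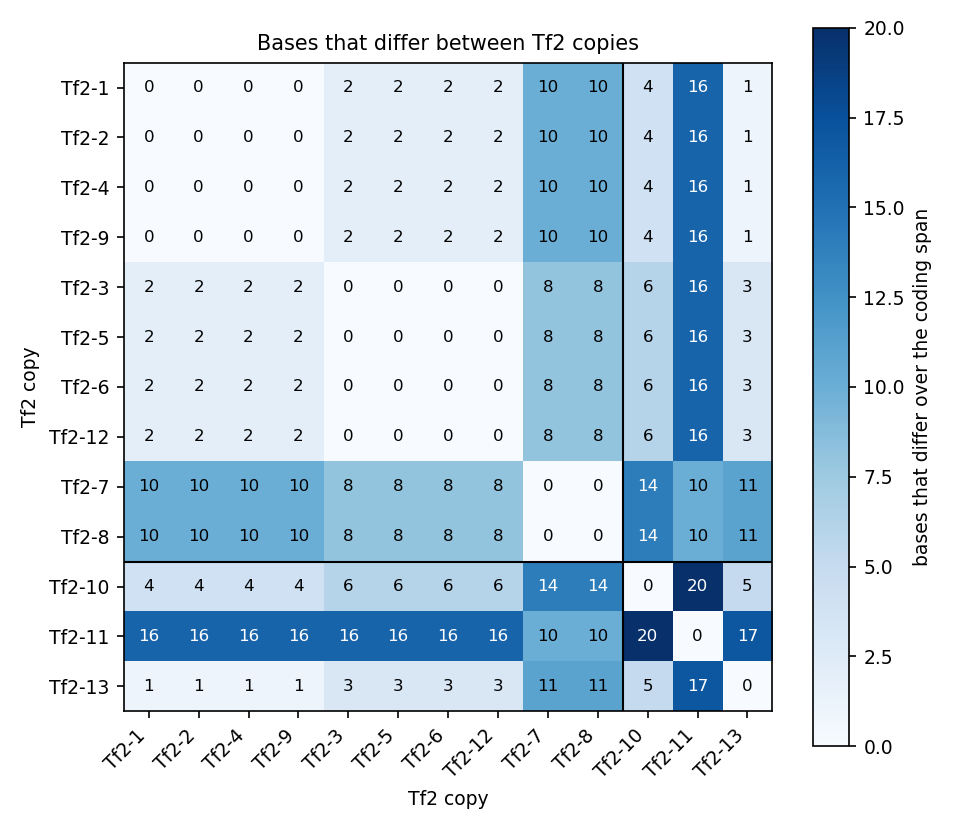
Matrix of the number of bases (substitutions plus inserted or missing bases) that differ over the coding span between each pair of Tf2 copies, with the members above and left of the black lines and the 3 other Tf2 rows below and right of them. The members fall into 3 blocks of 0 differences, of 4, 4 and 2 copies, and no pair of members differs at more than 10 bases.

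A read that lies inside the span can therefore match many places equally well. In 9 of the 10 members, no 200-base window occurs at a single place in the genome. The exception was Tf2-2, in which 76 of 3918 windows (1.94%) were found at 1 place, all by way of its run-on past the stop codon. A window of a member occurred at a median of 13 places, as many as there are Tf2 rows, and at most at 14. The other rows had more sequence of their own, 16.1% of windows in Tf2-10, 27.2% in Tf2-11 and 5.23% in Tf2-13. How reads with several equal matches were assigned is not given in the sources used here. A member's count is thus the number of reads that the counting gave to that copy, and the RNA made by a copy cannot be told apart from the way in which reads were shared out among copies.

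The 2 libraries held 12871729 and 12579850 counts, of which few were assigned to Tf2. A total of 3 counts in replicates 1 and 2 corresponds to 0.233 and 0.238 CPM (counts scaled to a library total of 1000000), and every member was above it. Genes of the labelled cell type were in place. The genes of the M-factor pheromone made by h- cells had 4405 and 4270 reads (mfm1), 2603 and 2733 reads (mfm2) and 601 and 597 reads (mfm3) in replicates 1 and 2, whereas map2, for the P-factor of the opposite mating type, had 2 and 0 reads. The rows of mat1-Mc and mat1-Mi, M genes of the mating-type locus, had 91 and 118 and 0 and 7 reads, but the mat1-Mc row is identical in sequence to SPBC1711.02, so its count has the same limit as those of Tf2. No row was matched by name to mat1-Pc or mat1-Pi. The meiotic genes mei4 (12 and 10 reads), ssm4 (11 and 10 reads) and mcp5 (4 and 11 reads) were low, against 10993 and 10797 reads for the actin gene act1.

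Together the 10 members had 182 reads in replicate 1 (exact Poisson 95% interval 156.5 to 210.4, which covers counting error only) and 230 reads in replicate 2 (201.2 to 261.7). This was 14.1 and 18.3 CPM, or 16.2 ± 2.93 CPM (SD, n = 2), and 0.00539% and 0.00694% of the reads of protein-coding genes. If a read was counted in more than 1 copy, this sum holds it more than once. Per copy the mean was 1.62 ± 0.293 CPM, against 1.10 ± 0.0919 CPM per copy for the 3 other rows, which had 40 and 44 reads in sum. The 3 rows were not alike. Tf2-13 (17 and 20 reads, 1.46 CPM) lay within the range of single members, 1.02 to 2.12 CPM. Tf2-10 (10 and 12 reads, 0.865 CPM) and Tf2-11 (13 and 12 reads, 0.982 CPM) lay below that range. All 13 rows together had 222 and 274 reads.

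In the class of Tf2-1, the reads of individual copies lay between 12 and 30. Tf2-1 (SPAC9.04, chrI:1465847-1469848, plus strand) had 18 and 24 reads in replicates 1 and 2. Tf2-2 (SPAC167.08, chrI:1564101-1568217, minus strand) had 21 and 20 reads. Tf2-4 (SPAC26A3.13c, chrI:3361547-3365548, minus strand) had 12 and 14 reads, the fewest of any member in sum. Tf2-9 (SPBC9B6.02c, chrII:1812748-1816749, minus strand) had 24 and 30 reads, the most of any member in each library, or 2.12 ± 0.368 CPM (SD, n = 2) against 1.02 ± 0.128 CPM for Tf2-4. These extremes came from copies of the same sequence, and the class as a whole had 75 and 88 reads.

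The class of Tf2-3 had 69 and 101 reads. Tf2-3 itself (SPAC2E1P3.03c, chrI:2927204-2931205, minus strand) had the fewest reads of all members in replicate 1, 11, and 28 reads in replicate 2, where only Tf2-9 had more. Tf2-5 (SPAPB15E9.03c, chrI:3996423-4000424, minus strand) had 23 and 27 reads. Tf2-6 (SPAC27E2.08, chrI:4022492-4026493, plus strand) had 18 and 21 reads, and Tf2-12 (SPCC1020.14, chrIII:778133-782134, minus strand) had 17 and 25 reads. All 4 copies of this class were higher in replicate 2, with the gap widest in Tf2-3.

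The class of Tf2-7 and Tf2-8 had 38 and 41 reads. Tf2-7 (SPAC13D1.01c, chrI:5191060-5195145, minus strand) had 22 and 16 reads, and Tf2-8 (SPAC19D5.09c, chrI:5195711-5199712, minus strand) had 16 and 25 reads. These neighbours thus had opposite orders in the libraries, and their sum was nearly the same in both. Per copy, the classes of Tf2-1, Tf2-3 and Tf2-7 averaged 1.60 ± 0.207, 1.67 ± 0.472 and 1.55 ± 0.109 CPM (SD, n = 2), and so differed by less than the larger of the SDs compared.

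**Figure D2:**
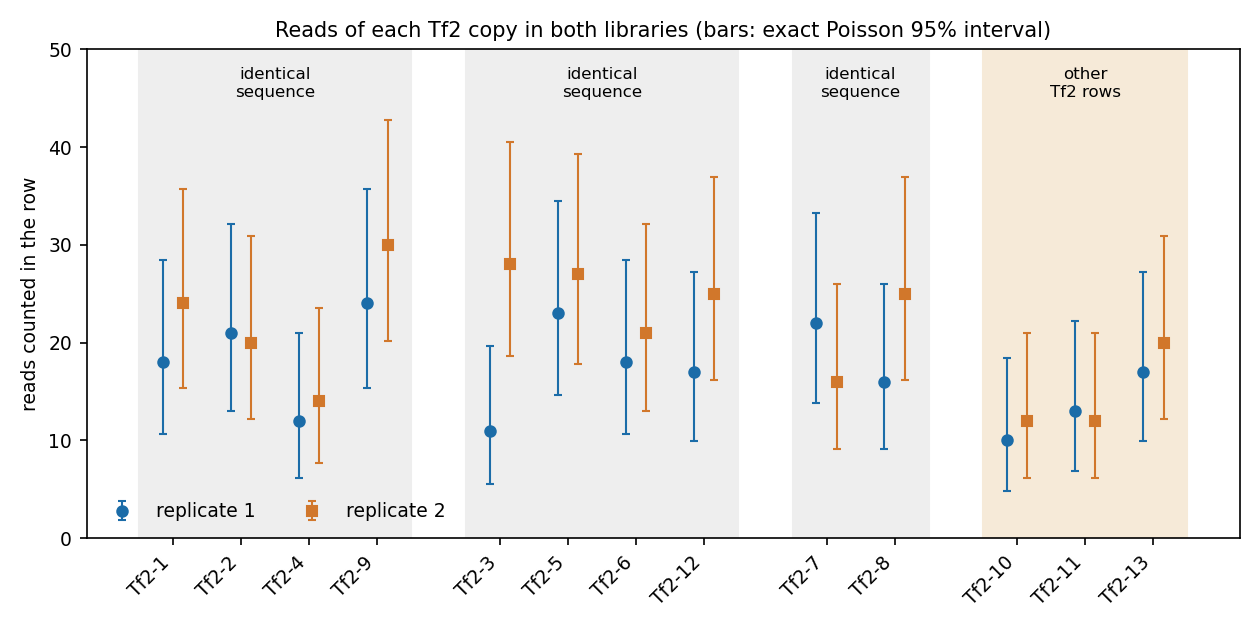
Reads counted in each Tf2 row (vertical axis) in replicate 1 (blue circles) and replicate 2 (orange squares), with exact Poisson 95% intervals as bars. Grey bands group members of identical coding sequence, and the last band holds the 3 other Tf2 rows. Members lie between 11 and 24 reads in replicate 1 and between 14 and 30 in replicate 2, and the 2 intervals of every copy overlap.

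From copy to copy the highest count was 2.18 times the lowest in replicate 1 and 2.14 times in replicate 2. The coefficient of variation between the 10 copies was 24.3% and 22.5%, beside 23.4% and 20.9% that counting error alone gives at the mean count. The order of the copies in one library said little about that in the other (Pearson's r 0.18 and Spearman's rho 0.15 over 10 copies, which share libraries and reads, so that no test was made). None of the 13 identical pairs had equal counts in either library. Over the whole table, Tf2 included, 37 groups of rows with identical sequence, 155 rows in all and mostly tRNA genes, had at least 10 reads as a group. By a weaker measure than the one for pairs, none of these groups had equal counts in all its rows in both libraries.

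To compare the libraries, each row's reads were set against the library totals in an exact binomial test (two-sided), with Benjamini-Hochberg adjustment over the 6752 rows with at least 10 reads in sum. It compares the libraries, not conditions. All 10 members passed the count minimum and 0 were called at an adjusted p below 0.05, against 4.19% of all rows tested (2.18% higher in replicate 1 and 2.01% higher in replicate 2). At an unadjusted p below 0.05 there was 1 member, Tf2-3, against 13.5% of all rows. Its log2 ratio of replicate 1 over replicate 2 was -1.34 (pseudocount of 0.5 reads, exact binomial p = 0.00596, adjusted p = 0.106), and the chi-square test and other scalings also called no member. The other log2 ratios ran from -0.66 in Tf2-8 to 0.41 in Tf2-7, and -0.37 was that of the sum over the members. Of the 10 members, 8 had a higher CPM in replicate 2, as did 61.7% of all rows tested and 55.4% of the 971 rows with 20 to 60 reads. Differences between the libraries of the size seen in most copies were not detectable at this depth.

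Against other genes, a single copy was low on both scales used, while the place of the family depended on the scale. Most member rows end at the stop codon, 399 nt before the end of the 3′ LTR. Reads that lie wholly past the row are not in these counts, and whether this lowers the members against other genes was not tested. The mean per copy, 1.62 CPM, was 15.6% of the median (10.4 CPM) over 4921 coding genes that had 10 or more reads in sum, and the sum over the members was 156% of it. Divided by row length the gap was wider, 0.403 CPM per kb for the mean of the members against a median of 5.38 CPM per kb, or 7.50% of it, and the sum over the members, 4.03 CPM per kb, was 75.0% of that median. RNA was read molecule by molecule, so counts need not rise with row length, which limits what the scale per kb shows. By CPM per kb, 4.36% of 5113 protein-coding genes lay below that mean. The members ran from 0.256 ± 0.0319 CPM per kb in Tf2-4 to 0.531 ± 0.0919 in Tf2-9 (SD, n = 2). Tf2-4 lay below the next copy, Tf2-7 (0.365 ± 0.0757), by more than either SD, although their Poisson intervals overlapped in each library, and from Tf2-7 upward neighbours in the order differed by less than the larger of their SDs. The protein-coding genes outside the family closest to the members' mean CPM per kb in both libraries were SPBC651.04 (11 and 14 reads), meu7 (10 and 13 reads) and SPAC8E11.08c (6 and 7 reads).

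**Figure D3:**
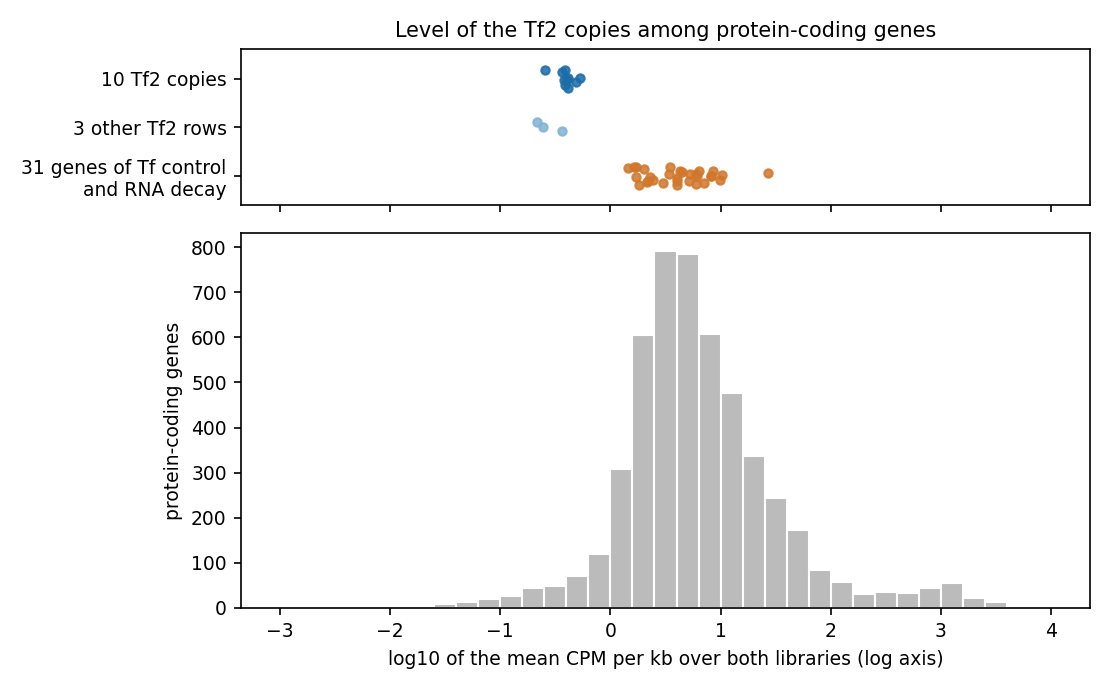
Mean CPM per kb over both libraries on a log10 axis for the 10 Tf2 copies, the 3 other Tf2 rows and 31 genes of Tf control and RNA decay (upper panel, 1 point a row, scattered vertically for legibility), above a histogram of the 5055 protein-coding genes with reads (lower panel). All Tf2 points lie left of the 31 genes and in the lower tail of the histogram. Each Tf2 point is a single row, and the sum over the members is not drawn.

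The genes known to act on Tf elements, or on the decay of unwanted RNA, were all expressed. All 31 genes of the list had a row. In the exact binomial test after adjustment 0 differed between the libraries, against the same 4.19% of all rows. Each lay above the highest Tf2 copy in CPM per kb, as did most protein-coding genes. Of all protein-coding genes, 5.12% lay below that copy, Tf2-9, on this scale. The 31 genes ran from 1.45 (dcr1, the Dicer ribonuclease) to 27.1 CPM per kb (pab2, a nuclear poly(A)-binding protein), with a median of 4.04. The count of a single copy depends on how reads that match several copies were shared out. Summed over the members, Tf2 had 4.03 CPM per kb, close to that median. Of the CENP-B homologues, cbp1 had 188 and 234 reads (16.6 ± 2.83 CPM), cbh1 had 51 and 69, and cbh2 37 and 37. Of the HIRA complex, hip1, slm9, hip3 and hip4 had means between 3.53 (hip4) and 12.1 CPM (hip3). The histone deacetylase genes clr3, clr6 and hst4 had 15.7 ± 1.08, 21.0 ± 2.45 and 12.8 ± 1.93 CPM, and the histone methyltransferase genes set1 and clr4 12.7 ± 0.817 and 7.51 ± 0.622 CPM. The gene of the transcription factor Sre1 had 5.38 ± 0.302 CPM, and scp1, for the membrane protein that holds the Sre1 precursor, had 30.5 ± 1.88 CPM. The chromatin remodeller gene fft3 had 37.1 ± 2.55 CPM. The RNAi genes ago1, dcr1 and rdp1 lay between 7.50 and 10.3 CPM, while rrp6, for a nuclease of the nuclear exosome, had 52 and 75 reads, the fewest among genes of nuclear RNA decay.

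The LTRs lay outside the counted rows, apart from the run-ons. The common LTR was 349 nt long, the 5′ LTR most often began 515 nt before the start codon, and the 3′ LTR ended 399 nt past the stop codon. Among the members there were 4 distinct 5′ LTRs, the commonest being shared by Tf2-2, Tf2-4, Tf2-8 and Tf2-9, and in 5 members (Tf2-3, Tf2-4, Tf2-6, Tf2-9 and Tf2-12) both LTRs of the copy were identical. The commonest 5′ LTR is shown because it holds the promoter of the element. Capitals mark the TATAAA that all 10 members have at bases 146 to 151 of the LTR, counted in Tf2-7 from where the common LTR begins, since its annotated LTR is 356 nt long.
First 300 bases of the 5′ LTR of Tf2-2, chrI:1568433-1568732, minus strand: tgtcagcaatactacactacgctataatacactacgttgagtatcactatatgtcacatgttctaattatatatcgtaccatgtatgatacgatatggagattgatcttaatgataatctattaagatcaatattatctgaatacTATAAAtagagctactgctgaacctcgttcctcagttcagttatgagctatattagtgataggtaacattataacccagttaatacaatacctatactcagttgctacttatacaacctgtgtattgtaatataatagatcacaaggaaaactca

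The letters TATAAA are common upstream of genes in this genome. They were found, on either strand, in 56.0% of the 5099 windows of the same length upstream of other protein-coding genes, so their presence is a description only. The 5 bases on either side of the element were the same in 8 of 10 members, as a target-site duplication leaves them. The exceptions were Tf2-7 and Tf2-8, which lie in tandem and share the LTR between them (chrI:5195312-5195667), so that each had only its outer side next to other DNA. Those outer bases, downstream of Tf2-7 and upstream of Tf2-8, were the same, cttat.

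Rows of non-coding transcripts (SPNCRNA) around the copies held few reads. Within 2000 nt of the members there were 41 such rows with 93 and 96 reads in all, 10 of them at 0 in both libraries. Of these, 20 overlapped the counted row of a member, LTRs left aside. Every one of the 20 was on the opposite strand, and they held 16 and 28 reads, or 8.79% and 12.2% as many as the members themselves. The highest of the 20 had 6 reads in sum and 4 had none. No SPNCRNA row lay over a member on its own strand. Whether the counting used the strand of a read is not given in the sources used here, and without it reads of an element and of its antisense row cannot be told apart.

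The antisense rows fell at recurring places of the element. In 8 copies a row had its near edge at positions 582 to 766, counted along the copy from the start codon, and its far edge at positions 1513 to 1522, with 7 and 13 reads over the 8 rows. Another 8 rows, 1 in each of 8 copies, lay at or just past the start codon, reaching up to 317 nt before it and 438 to 552 nt into the coding span, with 3 and 9 reads. The row of Tf2-9 began at position 7, inside the span. In Tf2-5 and Tf2-12 a single long row covered both places, with 3 and 3 reads and 3 and 2 reads. Short rows of 200 and 202 nt began at 1711 in Tf2-1 and Tf2-6 and had 1 read between them in replicate 2. By copy the antisense sums ran from 0 to 3 reads in replicate 1 and from 1 to 8 in replicate 2, where Tf2-2 was highest with 8 reads, against 0 in replicate 1. These rows lie in sequence that the copies share, so what holds for the assignment of sense reads holds for them too.

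**Figure D4:**
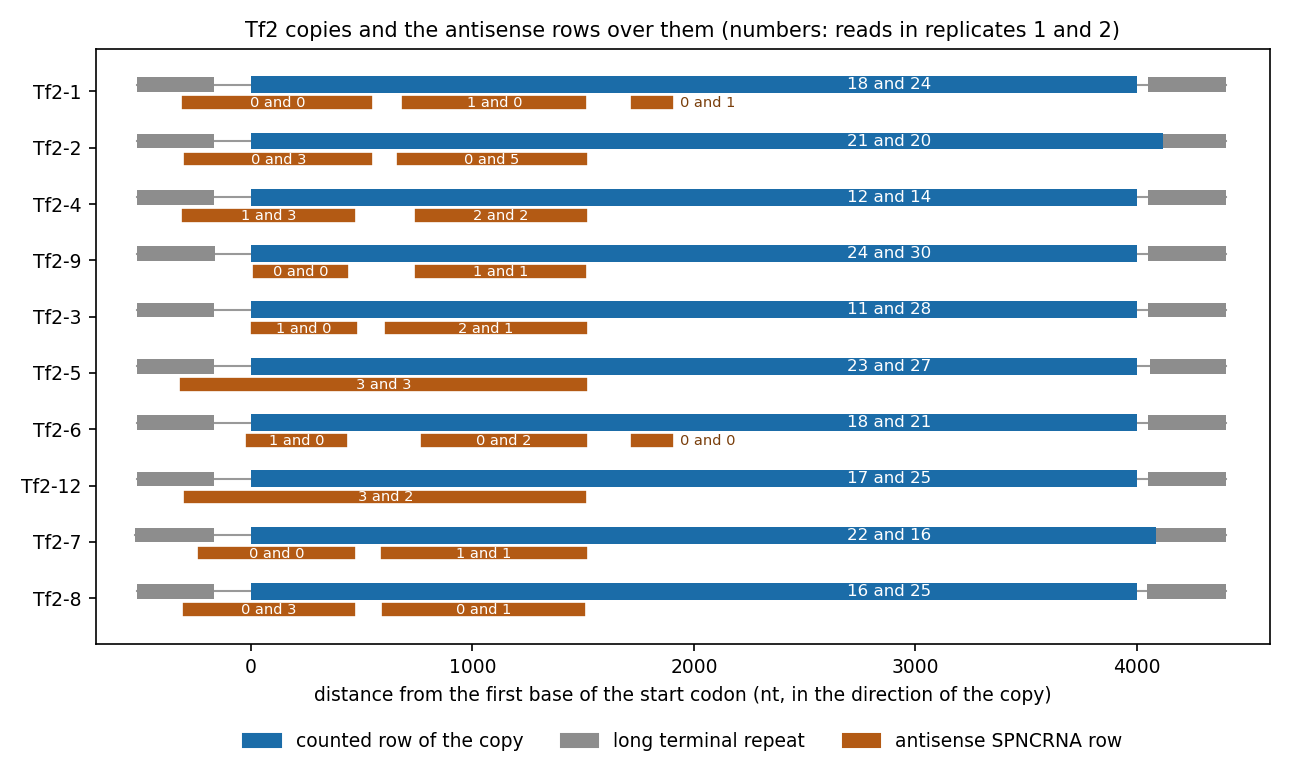
Map of the 10 members, aligned at the first base of the start codon (horizontal axis, distance in nt along the copy), with the counted row in blue, the LTRs in grey and antisense SPNCRNA rows in brown. Numbers give reads in replicates 1 and 2, and the antisense rows, with 0 to 5 reads in a library, lie over the first part of the coding span and before it.

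Outside the counted Tf2 rows, 6 SPNCRNA rows had at least 10 reads in sum. Downstream of Tf2-3, 668 nt from its end, SPNCRNA.859 on the opposite strand had 17 and 15 reads, the most of all 41 rows. It overlaps the gene amt3, which lies on the other strand there. SPNCRNA.1466, 451 nt downstream of Tf2-9 on the same strand, had 15 and 11 reads. SPNCRNA.5365, on the opposite strand there, had 5 and 5 reads and reaches into the 3′ LTR of Tf2-9. Upstream of Tf2-8, SPNCRNA.1058 on its strand had 8 and 5 reads and SPNCRNA.1059 on the opposite strand 10 and 10. SPNCRNA.3791, upstream of Tf2-6 on the opposite strand, had 4 and 7 reads. None of the 6 was called between the libraries.

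The nearest protein-coding genes on either side were, in most cases, above the copy beside them. There were 18 such genes, since Tf2-7 and Tf2-8 have the same neighbours, and 16 had more reads in sum than their copy. Most protein-coding genes lay above a single copy too. By mean CPM, between 5.79% (for Tf2-4) and 9.62% (for Tf2-9) of all protein-coding genes were lower than a member. Lying above a copy was thus not particular to its neighbours. The comparison sets each gene against a single copy, whose count depends on how shared reads were assigned. The members together had 16.2 CPM. The mean CPM of these genes ran from 0.829 to 40.2 with a median of 9.33, and 0 were called between the libraries, against the 4.19% over all rows. The lowest was amt3, a gene of the ammonium transporter family 758 nt downstream of Tf2-3, with 6 and 15 reads, and SPAPB15E9.06, downstream of Tf2-5, had 10 and 14. The highest was rpb6, for a subunit shared by the RNA polymerases, 903 nt upstream of Tf2-12 on the opposite strand, with 480 and 543 reads. Next to Tf2-4, the copy with the fewest reads, dhp1, for a nuclear 5′ to 3′ exoribonuclease, had 270 and 307 reads and atg44, for a factor of mitochondrial autophagy, 119 and 111. Next to Tf2-9, the copy with the most, any1 had 121 and 134 reads and pib2 71 and 66.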

How the data were processed

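After rRNA depletion, total RNA was given poly(A) tails in vitro and libraries were prepared with the nanopore direct RNA kit. The authors base-called reads with dorado and mapped them with minimap2 in spliced mode, and deposited raw read counts per annotated feature. The genome build, the counting tool and how it treated strand and reads with several matches were not given in the sources used. Names in the deposited header stand 1 cell to the right of their data, so columns were aligned by content, and the replicate 1 column, recorded as estimated counts for that reason, holds whole deposited counts that rounding does not change. Of 12684 rows, 12602 matched RefSeq locus tags (ASM294v3) and 12594 had the same coordinates.

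CPM were computed here over the total of all rows. Intervals are exact Poisson 95% intervals and cover counting error only. Each row with at least 10 reads in sum was put to an exact binomial test, two-sided (scipy 1.17.1), with Benjamini-Hochberg adjustment. The test was checked on simulated counts that varied by counting error alone, so the check does not cover further variation between replicates. With 1 group no fit across conditions was possible, and p-values measure only how these 2 libraries differ. TMM (edgeR 4.0.16) and DESeq2 1.42.0 gave alternative scalings, on rows with at least 10 reads. Copies were compared base by base or with the Biopython 1.88 global aligner, and windows were counted as exact matches on both strands. The members and lists were chosen with earlier results of these data known. Named were all members, every other Tf2 row, SPNCRNA rows with at least 10 reads within 2000 nt, the nearest coding gene on each side, the list of Tf control and decay genes (from which examples are given) and the 3 coding genes nearest to the members' mean CPM per kb. Figures were drawn with matplotlib 3.10.9.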

Additional observations from a re-analysis of the deposited data

How the results depend on the processing

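The members' median CPM, as the mean of both libraries (1.67), became 4.32 with rRNA rows left out of the total and 6.36 over the total of protein-coding genes, as the smaller totals make it, and stayed within the spread of the libraries under TMM or DESeq2 scaling. The sum over the members (16.2 CPM) became 41.8 and 61.6 CPM under those totals, 19.5 CPM with the 3 other Tf2 rows and 13.1 CPM without Tf2-2 and Tf2-7, a choice made after seeing the data. With 1 library left out, the median was 1.40 to 1.95, the sum 14.1 to 18.3 CPM, the coefficient of variation between copies 22.5% to 24.3% and the reads of neighbouring SPNCRNA rows 93 to 96. Those reads (94.5 in the mean) became 89 within 1000 nt and 278 within 5000 nt. The median CPM of the control and decay genes, as the mean of both libraries (11.8), became 30.3 without rRNA rows and 4.07 as CPM per kb. The 20 log2 ratios of members under TMM or DESeq2 scaling kept their direction, and no member was called under any setting run. The adjusted p of Tf2-3 (exact binomial or chi-square test) ran from 0.095 to 0.161. Windows of 50, 100 and 500 bases left the same count of 9 members without sequence of their own. A minimum of 100 reads was not run for the members, as none reaches it. No paired analysis was possible because only 1 group was sequenced. With 11 to 30 reads a copy and 2 libraries, counting error limits every comparison between copies, and whether the replicates' spread is biological or technical was not tested.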
